A study of Rattus norvegicus with 8 samples.

Results

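The 36 genes described here carry fatty acid oxidation in rat liver and its control by the nuclear receptor PPAR-alpha. They comprise the receptor with its partners, the proteins that bind, activate and carry fatty acids, the enzymes of mitochondrial and peroxisomal beta-oxidation, the microsomal Cyp4a hydroxylases, and 3 genes of ketone body metabolism, fuel choice and pantetheine breakdown. Members were chosen by gene symbol, with earlier results of these data known, and each matched a row in a table of read counts for 30562 genes. All 36 passed the filter on low counts that left 16591 genes for testing, but Cyp4a2 passed only through libraries with HCB and Acot1 only through libraries without it, so these 2 had to differ.

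Liver RNA was sequenced, with paired reads of 150 bases, from 8 rats, Wistar and male by their labels, with a weight of 160 g at the start, 2 from each of 4 groups of 5. Control rats received the vehicle. The Atorvastatin group received atorvastatin, a statin that blocks cholesterol synthesis, dissolved in drinking water over 30 days, with a stated daily dose of 5 mg/kg. The labels also give 5 mg in the 20 mL of water that a rat received each day, which at the stated weight is another dose, so the dose taken is uncertain. The HCB group received hexachlorobenzene (HCB), a chlorinated fungicide and persistent pollutant, by stomach tube, 100 mg/kg on 3 days of each week over 30 days. The Atorvastatin plus HCB group, called the combination below, received both. All rats were killed on day 37. By its title the study asked how atorvastatin alters the transcriptome of preneoplastic liver lesions that HCB induces.

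PPAR-alpha is a receptor for fatty acids and for fibrate drugs that binds DNA as a pair with the retinoid X receptor. In rodent liver, fasting or a fibrate activates it, and genes of fatty acid binding, mitochondrial and peroxisomal oxidation, microsomal omega-hydroxylation and ketone body formation are its textbook targets. Long-chain fatty acids are activated to acyl-CoA, carried into mitochondria as carnitine esters, and shortened in cycles of 4 reactions, while peroxisomes shorten very long and branched chains.

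Levels are given in CPM, counts per M reads of the normalised library size, in the order of replicates 1 and 2 of a group. A gene is said to have risen or fallen where the Benjamini-Hochberg adjusted p of edgeR's quasi-likelihood test, over 16591 genes, was under 0.05. Assigned reads per library ranged from 29.4 to 52.0 M. Reads in no annotated exon made up 27.7% and 15.3% in Control and 34.04% and 19.5% in Atorvastatin. They made up 7.46% to 11.4% in the HCB and combination libraries. This share did not overlap between libraries with and without HCB, so its part in the differences below cannot be told apart from HCB. The labels say that the rats were separate animals, so the spread is that between 2 animals a group.

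The libraries labelled HCB or combination differed from the unexposed ones, labelled Control or Atorvastatin, in more than the genes of fatty acid oxidation. A list of 5 fetal hepatocyte genes, Afp and Igf2 among them, summed to 37451 to 51247 CPM in the unexposed libraries and 148 to 333 CPM in the HCB-labelled ones, and 5 of 5 were lower in both HCB comparisons. Of 5 Y-linked genes 4 were higher in both, with sums of 1.99 to 3.99 CPM in the unexposed and 136 to 217 CPM in the HCB-labelled libraries, although every rat is labelled male. Lists of 6 proliferation, 7 erythroid and 7 neutrophil genes were lower in both comparisons in each of their members, with sums of 213 to 527, 1941 to 5040 and 130.4 to 222 CPM against 15.01 to 42.6, 299 to 1304 and 0.401 to 3.17 CPM. The neutrophil gene Ctsg had no reads in the 4 HCB-labelled libraries, so it passed the filter only through the unexposed ones and had to be lower. Other neutrophil and Y-linked genes with few reads on 1 side may have passed in the same way, which was not tested. Of all genes tested 9.64% rose and 10.2% fell in both comparisons. Adult hepatocyte genes, 9 of 9 found, summed to 51989 to 112118 CPM without HCB and 100438 to 145732 CPM with it, 5 higher and 1 lower in both comparisons. An effect of HCB on the genes below cannot be told apart from these differences between the libraries, and in whole liver fewer cells of a type and less RNA per cell cannot be told apart either.

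The 2 HCB comparisons, HCB with Control and the combination with Atorvastatin, share no library. In both, the HCB-labelled livers held less RNA of the receptor Ppara and its coactivator Ppargc1a and more of Fabp1, Cpt2, Acadm, Echs1, Eci1, Hsd17b4, Eci2, Pex11a and Cyp4a2. Against Control, 9 members rose and 5 fell, 38.9% of the 36 where 26.9% of all genes tested were called. The share that rose was 25% against 13% of all genes, and the share that fell was 13.9% against 13.9%. Against Atorvastatin, 12 members rose and 4 fell in the combination, 44.4% where 27.6% of all genes were called. The share that rose was 33.3% against 12.6%, and the share that fell was 11.1% against 15%. Of the members 9, or 25%, rose in both comparisons and 3, or 8.33%, fell in both, where 9.64% and 10.2% of all genes did. The 9 include Cyp4a2 and the 3 include Acot1, which had to differ. As the members were chosen with earlier results of these data known, shares above those of all genes are no independent support. The share that fell was thus near the background of all genes or below it. Against Control fewer members were called without Control 1 or without HCB 1. In the combination fewer were called without its replicate 1 or without Atorvastatin 1. The same held in each comparison in the fit without both Control 1 and Atorvastatin 1, the libraries with most reads outside exons. That fit lost Acadm, Echs1, Eci1, Hsd17b4, Eci2 and Cyp4a3 against Control, and Acsl1, Fabp1, Acad11, Echs1, Eci2 and Cyp4a8 in the combination. Against Control it gained Acot2 and Hadhb, both lower, as did the fit without Control 1 alone. Most of the members lost against Control had risen. Each of the fits named here left 1 library in a group, and fewer of all genes were called in them too. The losses were thus not particular to the members. The median log2 fold change of the members was 0.05 and 0.35 in the 2 comparisons, beside −0.09 and −0.11 over all genes.

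**Figure D1:**
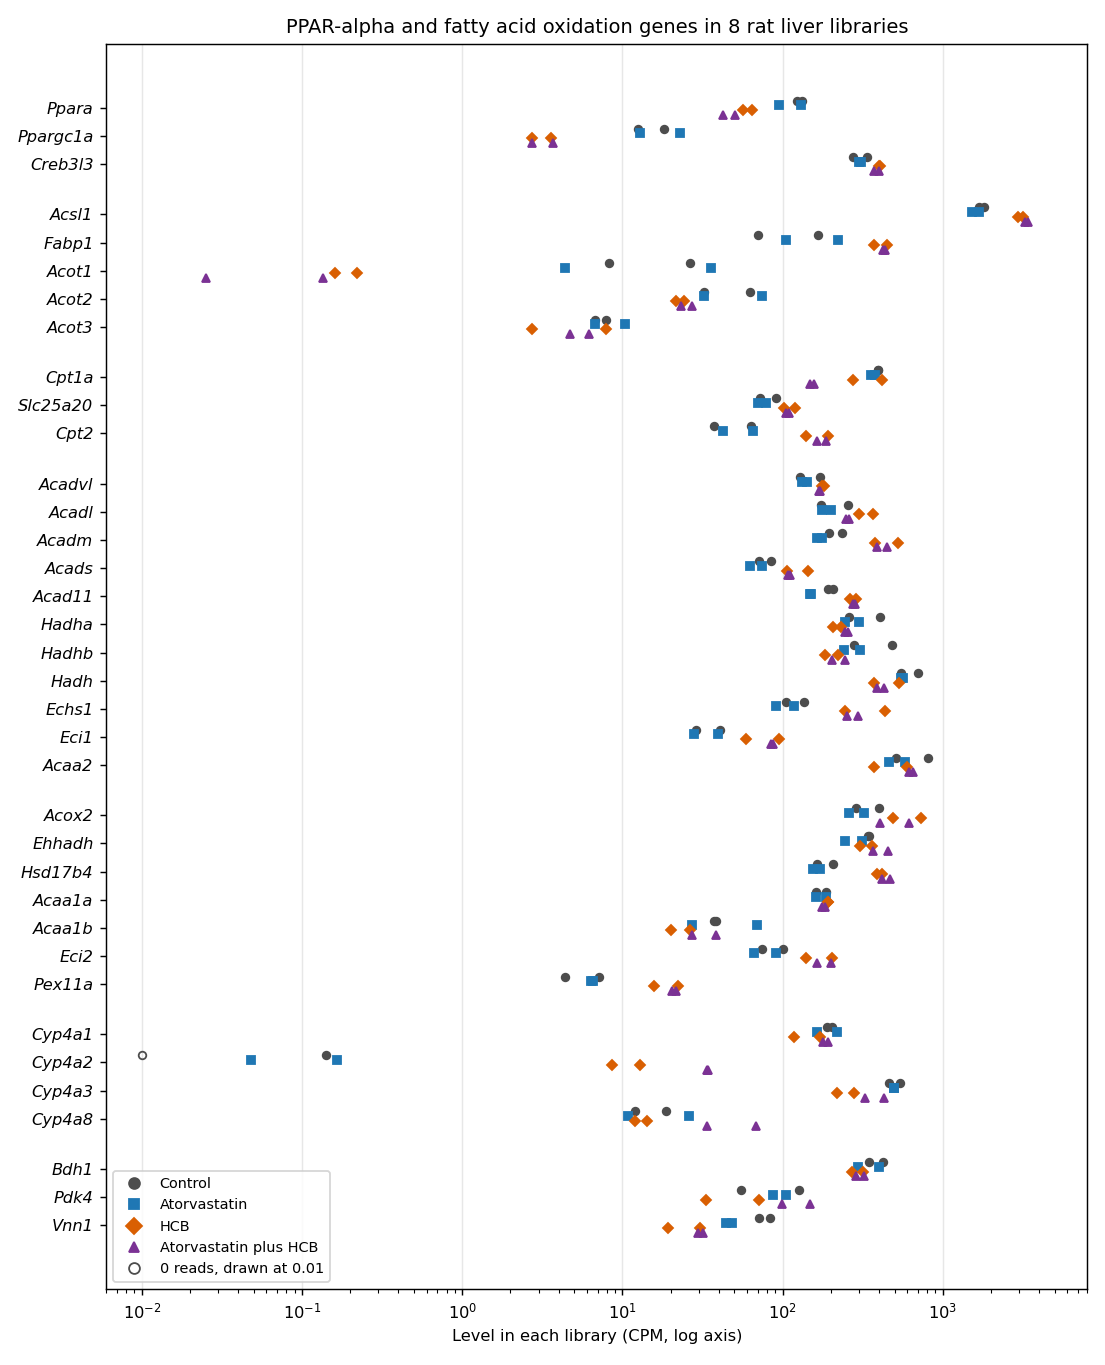
Level of each of the 36 members in each of the 8 libraries, in CPM on a log axis, grouped by role. Each point is 1 library, and the open circle marks the Control library with 0 reads of Cyp4a2. Cyp4a2 and Acot1 lie farthest apart between the libraries with and without HCB, in opposite directions.

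**Figure D2:**
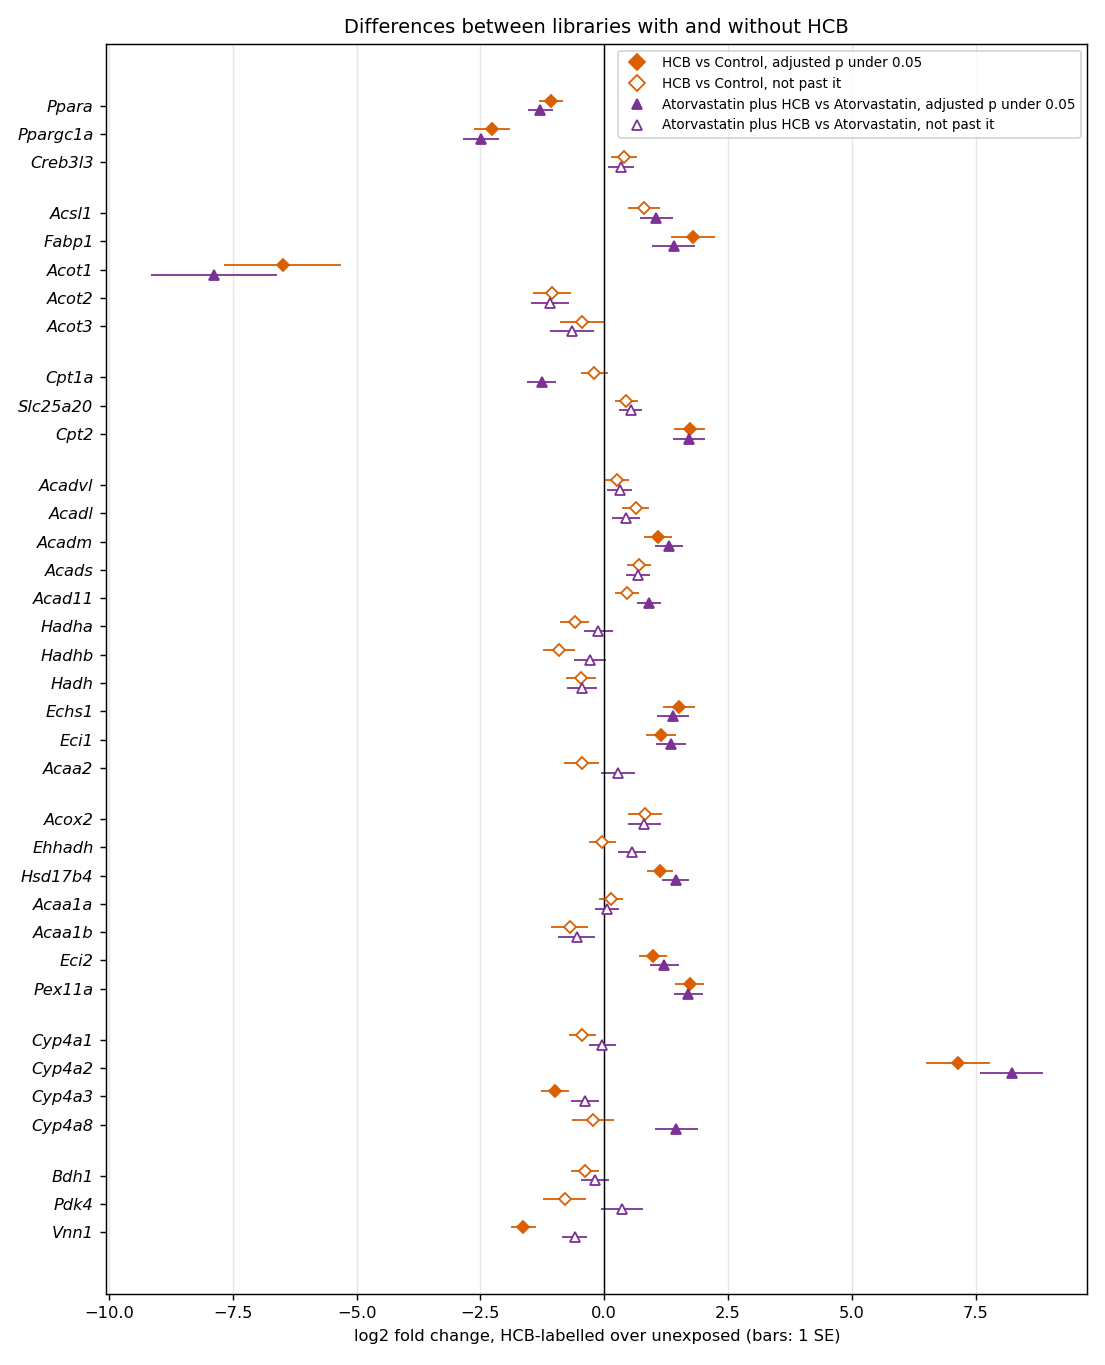
Log2 fold change of each member in HCB against Control (diamonds) and in the combination against Atorvastatin (triangles), with bars of 1 SE. Filled symbols passed an adjusted p of 0.05, which 14 and 16 of the 36 members did.

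These counts depend on how libraries are scaled. The counts above were made with TMM, which sets library sizes by the bulk of genes. With libraries scaled to total assigned reads, an alternative chosen after seeing the data, the median of all genes moved from −0.09 to −0.53 against Control and from −0.11 to −0.73 in the combination against Atorvastatin. Members moved with it, by −0.33 to −0.45 and by −0.56 to −0.74. The split became 6 higher and 12 lower against Control, and 5 higher and 11 lower against Atorvastatin. Of the 16591 genes 4311 and 5527 were then called, in either direction. Their split by direction is not given here, so the members are not set beside all genes by direction under this scaling. Under that scaling 3 members no longer rose against Control (Acadm, Eci1 and Eci2), and 7 no longer rose against Atorvastatin (Acsl1, Fabp1, Acadm, Acad11, Eci1, Eci2 and Cyp4a8). The members that passed as lower there and not under TMM were Acot2, Hadha, Hadhb, Hadh and Bdh1 in both, with Acaa2 and Cyp4a1 against Control and Cyp4a3 and Vnn1 against Atorvastatin. Directions below are under TMM, relative to a median of all genes near 0.

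**Figure D3:**
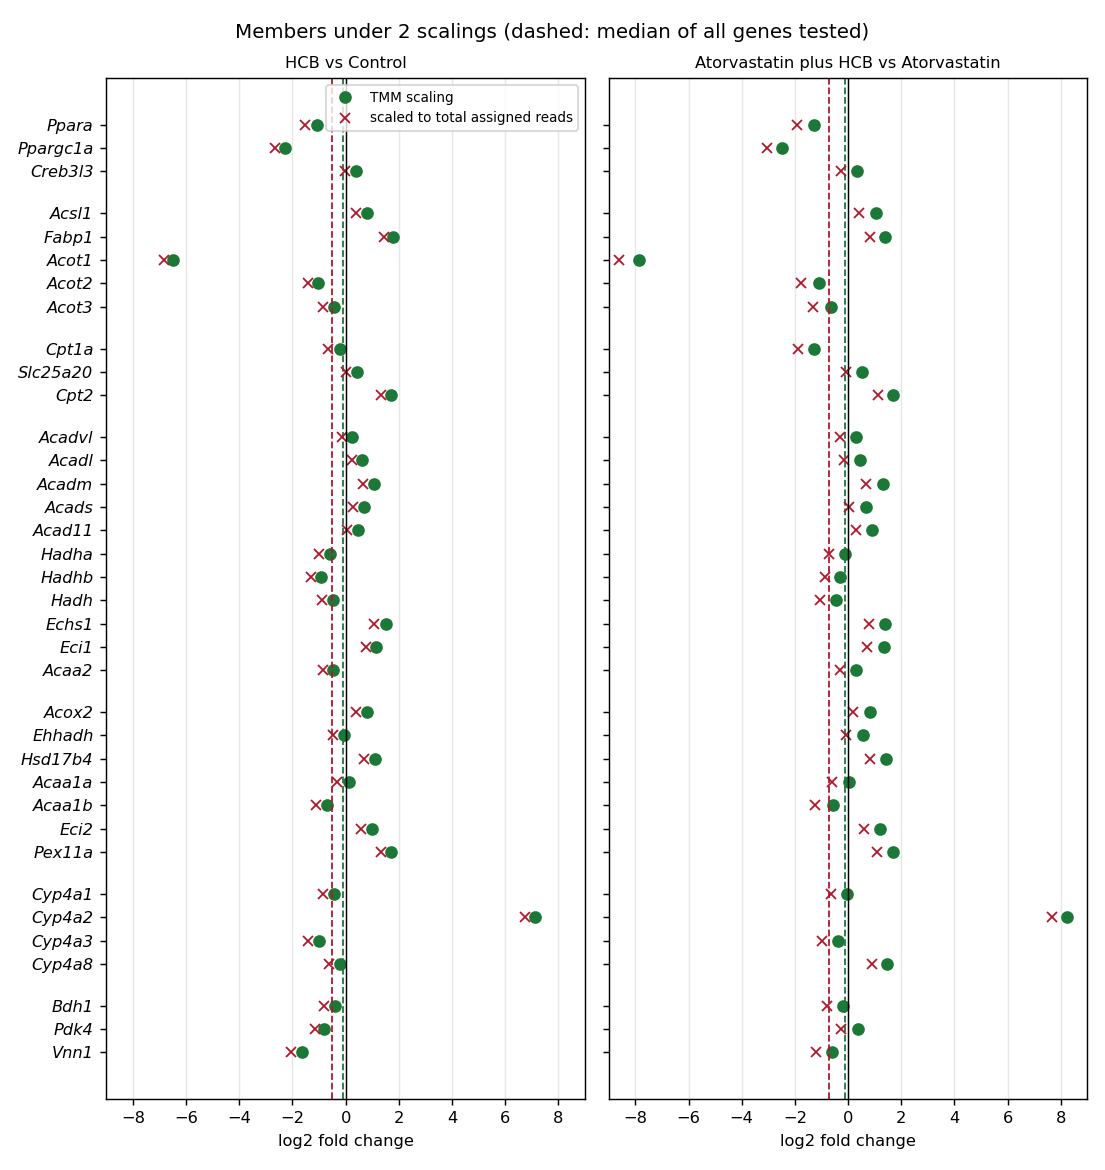
Log2 fold change of each member under TMM scaling (circles) and with libraries scaled to total assigned reads (crosses), for HCB against Control on the left and the combination against Atorvastatin on the right. Dashed lines mark the median of all genes tested, at −0.09 and −0.53 on the left and −0.11 and −0.73 on the right, and the members shift with it.

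Summed over all 36, the members made up 7454 and 9276 CPM for Control, 7331 and 7653 CPM for Atorvastatin, 10648 and 9869 CPM for HCB, and 10610.4 and 10689.9 CPM for the combination. Under TMM the 4 HCB-labelled libraries lay above the 4 unexposed ones. TMM multiplied library sizes by 1.01 to 1.42 without HCB and by 0.777 to 0.891 with it. With libraries scaled to total assigned reads, the sums do not keep that order. Acsl1 and Fabp1 alone supplied 21.2% to 24.4% of that sum without HCB and 31.2% to 36.5% with it. By level per kilobase of exon, Acsl1 led in Control at 443 CPM per kb, ahead of Acaa2 at 375 and Hadh at 371. Fabp1 led in HCB at 829 CPM per kb and in the combination at 870.2, with Acsl1 next at 774 and 843. The lowest member was Cyp4a2 in both unexposed groups and Acot1 in both HCB-labelled ones.

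**Figure D4:**
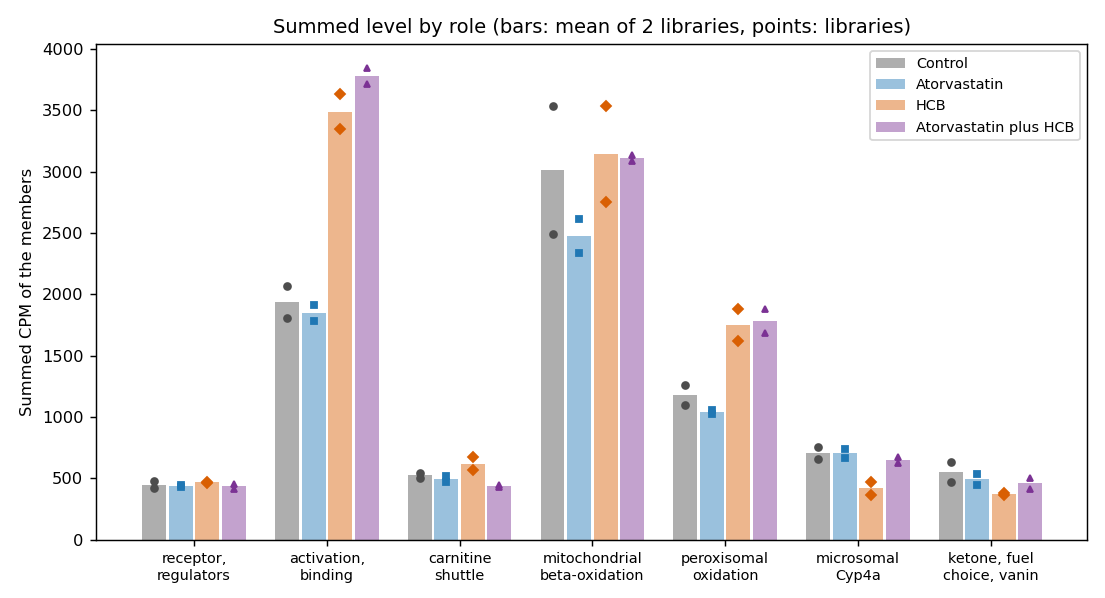
Summed CPM of the members by role, with bars at the mean of 2 libraries and points at each library. Fatty acid activation and binding, led by Acsl1, separates the libraries with and without HCB, at 3344 to 3848 against 1786 to 2065 CPM, and the mitochondrial sums overlap.

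The receptor fell. Ppara (ENSRNOG00000021463, chromosome 7, 116832756 to 116895346, + strand of mRatBN7.2) stood at 133 and 123 CPM for Control, 131 and 95.7 for Atorvastatin, 56.4 and 64.6 for HCB, and 42.5 and 50.3 for the combination. Both HCB-labelled groups lay below both unexposed groups with no overlap, a log2 fold change of −1.08 ± 0.24 (SE, adjusted p = 0.00825 by edgeR) against Control and −1.29 ± 0.24 (SE, adjusted p = 0.00342 by edgeR) in the combination against Atorvastatin. Ppargc1a, the coactivator PGC-1alpha that raises oxidative metabolism in fasting (ENSRNOG00000004473, chromosome 14, 58861144 to 59512656, + strand), stood at 12.5 and 18.1 CPM for Control, 12.9 and 23.1 for Atorvastatin, 2.72 and 3.60 for HCB, and 2.73 and 3.67 for the combination. Its log2 fold change was −2.27 ± 0.36 (SE, adjusted p = 0.00116 by edgeR) and −2.49 ± 0.36 (SE, adjusted p = 0.000704 by edgeR), and both calls passed in each of the 18 other settings tried. Creb3l3, a liver transcription factor that works with PPAR-alpha in fasting, stood at 276 and 335 CPM for Control, 299 and 310.1 for Atorvastatin, 403 and 402 for HCB, and 372 and 401 for the combination. The HCB-labelled values were the 4 highest. It passed in neither comparison, at 0.40 ± 0.26 (SE, adjusted p = 0.278 by edgeR) and 0.34 ± 0.26 (SE, adjusted p = 0.341 by edgeR). The fall of Ppara missed the threshold against Control without Control 1 or HCB 1 (edgeR adjusted p = 0.0517 and 0.0502), and in the combination without combination 1 (edgeR adjusted p = 0.0635).

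**Figure D5:**
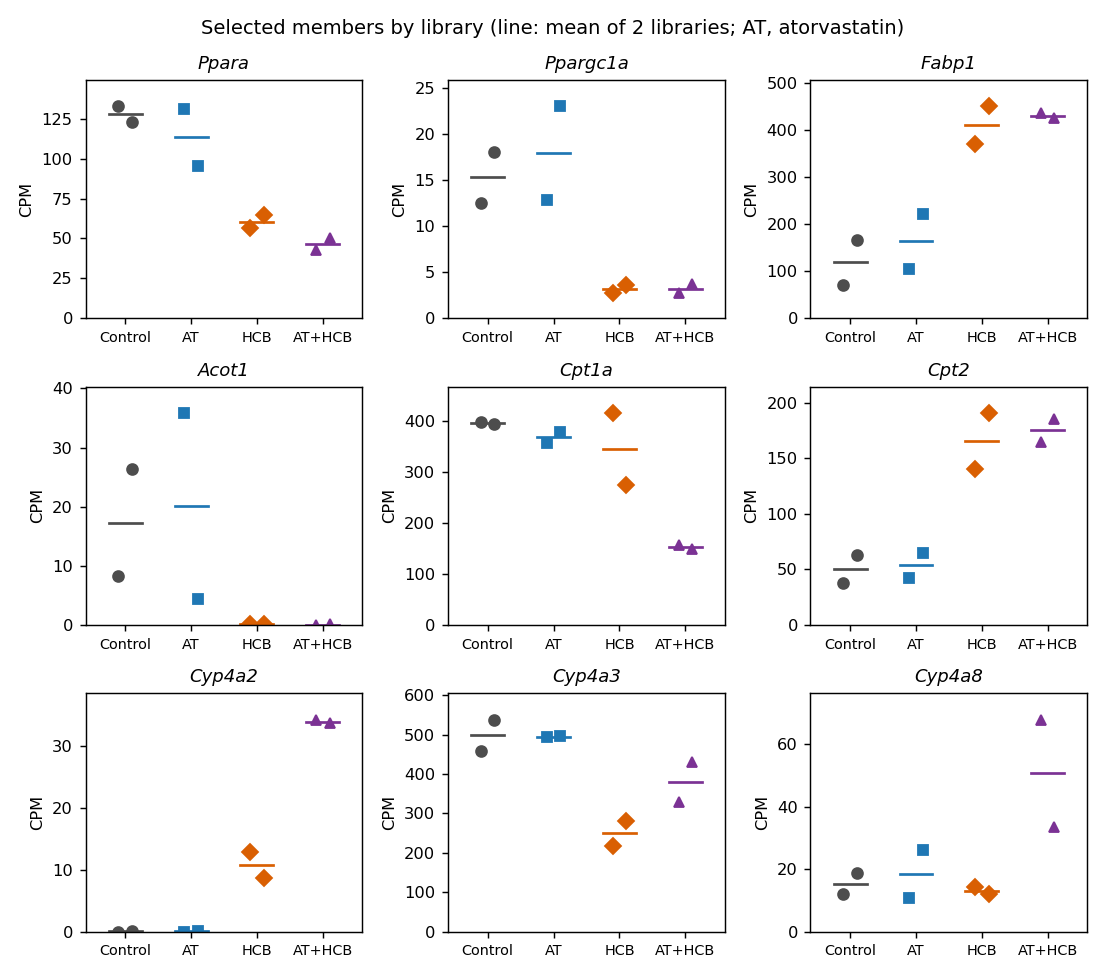
CPM of 9 members in each library, with lines at the mean of 2 libraries (AT, atorvastatin) and every axis from 0. Ppara and Ppargc1a are lower and Fabp1 and Cpt2 higher in all 4 HCB-labelled libraries, and the combination stands apart from HCB for Cpt1a, Cyp4a2 and Cyp4a8, differences that edgeR did not call.

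Among the genes of binding and activation, Fabp1 rose and Acot1 fell. Fabp1, the liver fatty acid binding protein and a textbook PPAR-alpha target (ENSRNOG00000006675, chromosome 4, 103191006 to 103194788, + strand), stood at 70.1 and 167 CPM for Control, 105 and 221 for Atorvastatin, 371 and 451 for HCB, and 435 and 426 for the combination. The HCB-labelled values were the 4 highest, and the unexposed ones were spread more widely. Its log2 fold change was 1.79 ± 0.44 (SE, adjusted p = 0.0128 by edgeR) against Control and 1.40 ± 0.44 (SE, adjusted p = 0.0354 by edgeR) in the combination against Atorvastatin. With each library left out in turn the value against Control was 1.30 to 2.58, and its call was lost without Control 1 or HCB 2 (edgeR adjusted p = 0.103 and 0.0627). In the combination the call was lost without Atorvastatin 1, HCB 1, HCB 2, combination 1 or combination 2 (edgeR adjusted p = 0.0559 to 0.188).

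Fabp1 was also one of few members with a near match to the PPAR response element in its promoter window. PPAR-alpha with its partner binds AGGTCANAGGTCA, a repeat of AGGTCA with 1 base between the copies, and this was searched on both strands in windows of 300 bases from RefSeq (build GRCr8), from 250 bases before to 50 after the start. Windows were found for 32 of the 36 members. No member window and 0.0538% of all 33469 windows held an exact match, while 2 members, Fabp1 and Acadvl, and 0.439% of all windows held one with at most 1 mismatch. With at most 2 mismatches the members were 5, Creb3l3, Echs1 and Slc25a20 added, against 3.77% of all windows. The single copy AGGTCA was in 11 of 32 member windows and 16.2% of all, and it overlaps the longer element by construction. The 250 bases before the start are shown for both members with 1 mismatch, at chr4:104749090-104749339 on the + strand for Fabp1 and at chr10:55236706-55236955 on the − strand for Acadvl, with the element in capitals.
Fabp1: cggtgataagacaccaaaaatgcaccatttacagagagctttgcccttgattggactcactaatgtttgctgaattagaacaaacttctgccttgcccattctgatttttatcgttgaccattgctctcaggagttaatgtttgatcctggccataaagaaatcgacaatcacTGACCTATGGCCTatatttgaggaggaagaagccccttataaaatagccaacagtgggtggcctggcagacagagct
Acadvl: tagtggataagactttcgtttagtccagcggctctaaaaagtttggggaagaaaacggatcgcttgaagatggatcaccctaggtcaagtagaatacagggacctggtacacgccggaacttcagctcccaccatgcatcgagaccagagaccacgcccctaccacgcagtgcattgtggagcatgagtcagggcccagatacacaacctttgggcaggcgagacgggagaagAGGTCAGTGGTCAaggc
The element starts 77 bases before the start in Fabp1, where it reads on the opposite strand, and 17 bases before it in Acadvl. The levels of these 2 members differed in pattern: Fabp1 rose in both comparisons, and Acadvl, the very long-chain acyl-CoA dehydrogenase, passed in neither, at 0.26 ± 0.24 (SE, adjusted p = 0.465 by edgeR) and 0.31 ± 0.24 (SE, adjusted p = 0.366 by edgeR).

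Acsl1, the main long-chain acyl-CoA synthetase of liver, stood at 1690.0 and 1801 CPM for Control, 1684 and 1522 for Atorvastatin, 2949 and 3149 for HCB, and 3249 and 3388 for the combination. Every HCB-labelled library lay above every unexposed one. It passed in the combination against Atorvastatin, at 1.05 ± 0.33 (SE, adjusted p = 0.0362 by edgeR), and not against Control, at 0.80 ± 0.33 (SE, adjusted p = 0.0912 by edgeR). That call was lost without Control 1, Control 2, Atorvastatin 1, Atorvastatin 2, combination 1 or combination 2 (edgeR adjusted p = 0.0507 to 0.155), and also when only the Atorvastatin and combination libraries were fitted.

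The 3 acyl-CoA thioesterases, which release free fatty acids from acyl-CoA, lie next to each other on chromosome 6. Acot1, the cytosolic one (ENSRNOG00000055221, chromosome 6, 103636041 to 103644163, + strand), stood at 8.28 and 26.3 CPM for Control, 35.8 and 4.36 for Atorvastatin, 0.222 and 0.160 for HCB, and 0.0251 and 0.135 for the combination. In reads these values were 326 and 1112, 1496 and 210, 7 and 6, and 1 and 6, so the unexposed libraries differed among themselves by up to several times and the HCB-labelled ones were near nothing. Acot1 passed the filter only through the unexposed libraries, so it had to differ. The log2 fold change was −6.49 ± 1.18 (SE, adjusted p = 0.00438 by edgeR) and −7.87 ± 1.28 (SE, adjusted p = 0.00259 by edgeR), and the call against Control was lost without HCB 1 (edgeR adjusted p = 0.0578). Its mitochondrial neighbour Acot2 stood at 32.6 and 62.8 CPM for Control, 74.8 and 32.5 for Atorvastatin, 21.7 and 24.2 for HCB, and 23.2 and 27.1 for the combination. The HCB-labelled values were below the unexposed ones, and neither comparison passed, at −1.05 ± 0.39 (SE, adjusted p = 0.0683 by edgeR) and −1.09 ± 0.39 (SE, adjusted p = 0.0588 by edgeR). It did pass against Control without Control 1, Atorvastatin 1 or Atorvastatin 2 (edgeR adjusted p = 0.0199 to 0.039), and in the combination without Control 1, Control 2 or Atorvastatin 2 (edgeR adjusted p = 0.00681 to 0.048). The log2 fold change shrank to −0.47 against Control without Control 2 and to −0.37 in the combination without Atorvastatin 1. Acot2 passed in the average of both HCB comparisons, at −1.07 ± 0.28 (SE, adjusted p = 0.00894 by edgeR). That call was lost without HCB 1, and the value was −0.71 without Atorvastatin 1. Acot3, the peroxisomal one, ranged from 2.72 to 10.4 CPM over the 8 libraries and passed in neither comparison, at −0.45 ± 0.44 (SE, adjusted p = 0.475 by edgeR) and −0.66 ± 0.44 (SE, adjusted p = 0.284 by edgeR), and against Control only without HCB 2 (edgeR adjusted p = 0.0369), with 0.14 without HCB 1. These genes are close copies, so reads may have been lost or misplaced between them, and Acot2 overlaps Heatr4 on the other strand.

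In the carnitine shuttle the outer and inner enzymes parted. Cpt1a, the outer carnitine palmitoyltransferase that sets the pace of mitochondrial entry (ENSRNOG00000014254, chromosome 1, 200565613 to 200627055, + strand), stood at 397 and 394 CPM for Control, 356 and 378 for Atorvastatin, 415 and 274 for HCB, and 157 and 148 for the combination. The combination lay below all other libraries, and HCB alone spanned the unexposed values. Its log2 fold change was −0.20 ± 0.28 (SE, adjusted p = 0.63 by edgeR) against Control and −1.27 ± 0.28 (SE, adjusted p = 0.0083 by edgeR) in the combination against Atorvastatin, a fall that missed the threshold without combination 1 or combination 2 (edgeR adjusted p = 0.0816 and 0.0855). Cpt2, the inner enzyme that reforms acyl-CoA (ENSRNOG00000012443, chromosome 5, 122664677 to 122682095, − strand), stood at 37.6 and 63.1 CPM for Control, 42.4 and 65.2 for Atorvastatin, 141 and 191 for HCB, and 165 and 186 for the combination. It rose by 1.72 ± 0.32 (SE, adjusted p = 0.00318 by edgeR) and 1.71 ± 0.32 (SE, adjusted p = 0.00338 by edgeR) on the log2 scale, with no overlap and in each of the 18 other settings. The ratio of Cpt1a to Cpt2, both in CPM per kb, was 5.93 and 3.51 for Control, 4.72 and 3.26 for Atorvastatin, 1.66 and 0.805 for HCB, and 0.535 and 0.448 for the combination. The ratio thus had no overlap between the libraries with and without HCB, nor between HCB and the combination. It restates the levels of both genes, of which only Cpt2 was called against Control. Slc25a20, the carnitine-acylcarnitine translocase between them, stood at 72.0 and 90.5 CPM for Control, 69.8 and 78.4 for Atorvastatin, 119 and 102 for HCB, and 105 and 109 for the combination, again the 4 highest with HCB. It passed in neither comparison, at 0.44 ± 0.23 (SE, adjusted p = 0.178 by edgeR) and 0.53 ± 0.23 (SE, adjusted p = 0.108 by edgeR), and passed in their average at 0.49 ± 0.16 (SE, adjusted p = 0.0301 by edgeR). That average lost its call without Control 1, Atorvastatin 1, combination 1 or combination 2 (edgeR adjusted p = 0.0725 to 0.127).

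Of the 11 members of mitochondrial beta-oxidation 3 rose against Control and 4 in the combination against Atorvastatin, where 13% and 12.6% of all genes rose. None fell in either, where 13.9% and 15% of all genes fell. Their summed level overlapped between groups, at 2338 to 3534 CPM without HCB and 2750 to 3536 CPM with it. The first step is made by acyl-CoA dehydrogenases of different chain lengths. Acadm, for medium chains (ENSRNOG00000009845, chromosome 2, 242858865 to 242883147, − strand), stood at 196 and 235 CPM for Control, 176 and 163 for Atorvastatin, 529 and 379.7 for HCB, and 447 and 389.9 for the combination, and every HCB-labelled library lay above every unexposed one. It rose by 1.08 ± 0.28 (SE, adjusted p = 0.0169 by edgeR) and 1.30 ± 0.28 (SE, adjusted p = 0.00696 by edgeR) on the log2 scale. The call was lost against Control without Control 1 or HCB 1 (edgeR adjusted p = 0.138 and 0.0784), and in the combination without combination 1 (edgeR adjusted p = 0.0601).

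Acads, for short chains, stood at 71.6 and 84.1 CPM for Control, 73.9 and 62.2 for Atorvastatin, 145 and 107 for HCB, and 110.6 and 109 for the combination. With no overlap, both comparisons just missed the threshold at 0.69 ± 0.24 (SE, adjusted p = 0.0553 by edgeR) and 0.69 ± 0.24 (SE, adjusted p = 0.0558 by edgeR), and their average passed at 0.69 ± 0.17 (SE, adjusted p = 0.00734 by edgeR). Each passed with some libraries left out, against Control without HCB 2 (edgeR adjusted p = 0.0257) and in the combination without HCB 1 or HCB 2 (edgeR adjusted p = 0.0261 and 0.0311). Acadl, for long chains, ranged from 174 to 257 CPM without HCB and 249.4 to 367 CPM with it. It passed in neither at 0.63 ± 0.28 (SE, adjusted p = 0.118 by edgeR) and 0.44 ± 0.28 (SE, adjusted p = 0.26 by edgeR) and in the average at 0.54 ± 0.20 (SE, adjusted p = 0.0447 by edgeR), a call lost without Control 1, Atorvastatin 1, Atorvastatin 2, HCB 1, combination 1 or combination 2 (edgeR adjusted p = 0.0558 to 0.179). Acad11, another dehydrogenase of long chains, stood at 191 and 207 CPM for Control, 150.3 and 149 for Atorvastatin, 264 and 286 for HCB, and 276 and 284 for the combination. It passed in the combination, at 0.91 ± 0.24 (SE, adjusted p = 0.0189 by edgeR), and not against Control, at 0.47 ± 0.24 (SE, adjusted p = 0.175 by edgeR). That call was lost without Atorvastatin 1, Atorvastatin 2, combination 1 or combination 2 (edgeR adjusted p = 0.0671 to 0.1). Acad11 shares its span with Ackr4 on the other strand, which had 5465 reads over the 8 libraries.

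Of the hydration and isomerase steps, Echs1 and Eci1 rose. Echs1, the short-chain enoyl-CoA hydratase (ENSRNOG00000064647, chromosome 1, 194895036 to 194903884, − strand), stood at 105 and 135 CPM for Control, 90.4 and 118 for Atorvastatin, 436 and 247 for HCB, and 296 and 251 for the combination. All 4 HCB-labelled values lay above the unexposed ones, with HCB 1 the highest. The log2 fold change was 1.51 ± 0.32 (SE, adjusted p = 0.00658 by edgeR) and 1.39 ± 0.32 (SE, adjusted p = 0.0096 by edgeR). It lost its call against Control without Control 1 (edgeR adjusted p = 0.0695) and in the combination without Atorvastatin 1 or combination 1 (edgeR adjusted p = 0.0616 and 0.0677), and it overlaps Paox on the other strand. Eci1, the isomerase that prepares unsaturated chains, stood at 28.7 and 40.6 CPM for Control, 39.4 and 28.0 for Atorvastatin, 58.7 and 94.5 for HCB, and 84.2 and 87.5 for the combination, again with no overlap. It rose by 1.15 ± 0.29 (SE, adjusted p = 0.0156 by edgeR) and 1.35 ± 0.30 (SE, adjusted p = 0.00721 by edgeR) on the log2 scale, a call lost against Control without Control 1 or HCB 2 (edgeR adjusted p = 0.138 and 0.087), where the value without HCB 2 was 0.76.

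No member of the last steps of the cycle passed in either comparison. Hadha and Hadhb, the subunits of the trifunctional protein, lie next to each other on chromosome 6. Hadha stood at 258 and 404 CPM for Control, 245 and 301 for Atorvastatin, 207 and 230.3 for HCB, and 256 and 246 for the combination, at −0.60 ± 0.29 (SE, adjusted p = 0.148 by edgeR) and −0.12 ± 0.29 (SE, adjusted p = 0.776 by edgeR) on the log2 scale. Hadhb stood at 278 and 482 CPM for Control, 242 and 303 for Atorvastatin, 221 and 183 for HCB, and 202 and 245 for the combination. Against Control both HCB libraries lay below both Control libraries for each subunit, and against Atorvastatin the groups overlapped. Hadhb missed the threshold at −0.91 ± 0.32 (SE, adjusted p = 0.0542 by edgeR) and −0.29 ± 0.31 (SE, adjusted p = 0.517 by edgeR), though it passed against Control without Control 1, Atorvastatin 1 or Atorvastatin 2 (edgeR adjusted p = 0.0361 to 0.0482). Without Control 2 the value against Control was −0.43. It passed in the average at −0.60 ± 0.22 (SE, adjusted p = 0.0462 by edgeR), which moved to −0.34 without Control 2 and lost its call without Control 2, Atorvastatin 2, HCB 1, HCB 2, combination 1 or combination 2 (edgeR adjusted p = 0.0719 to 0.243). Hadh, the short-chain hydroxyacyl-CoA dehydrogenase, ranged from 374 to 705 CPM and was at −0.46 ± 0.30 (SE, adjusted p = 0.275 by edgeR) and −0.45 ± 0.30 (SE, adjusted p = 0.287 by edgeR), and Acaa2, the thiolase that ends the cycle, at −0.46 ± 0.35 (SE, adjusted p = 0.349 by edgeR) and 0.28 ± 0.35 (SE, adjusted p = 0.562 by edgeR). Neither passed, and Acaa2 spanned 370 to 814 CPM over the 8 libraries.

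Peroxisomal oxidation had 3 members that rose in each comparison, the same 3 of 7 in both, and none that fell, where 9.64% of all genes rose and 10.2% fell in both. Its 7 members summed to 1024 to 1258 CPM without HCB and 1617 to 1884 CPM with it, with no overlap under TMM. With libraries scaled to total assigned reads these sums overlap. Hsd17b4, the multifunctional enzyme for very long and branched chains and bile acid precursors (ENSRNOG00000015840, chromosome 18, 43328824 to 43417952, + strand), stood at 165 and 205 CPM for Control, 155 and 170.3 for Atorvastatin, 416 and 388 for HCB, and 467 and 415 for the combination. It rose by 1.12 ± 0.26 (SE, adjusted p = 0.0106 by edgeR) and 1.44 ± 0.27 (SE, adjusted p = 0.00301 by edgeR) on the log2 scale, a call lost against Control without Control 1 (edgeR adjusted p = 0.11). Pex11a, which divides peroxisomes and responds to fibrates (ENSRNOG00000015003, chromosome 1, 133680091 to 133687172, − strand), stood at 4.37 and 7.18 CPM for Control, 6.39 and 6.52 for Atorvastatin, 15.8 and 22.3 for HCB, and 21.6 and 20.4 for the combination. Its rise of 1.72 ± 0.30 (SE, adjusted p = 0.00207 by edgeR) and 1.70 ± 0.30 (SE, adjusted p = 0.00221 by edgeR) passed in each of the 18 other settings.

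Eci2, the peroxisomal isomerase, stood at 74.1 and 100.0 CPM for Control, 66.0 and 90.6 for Atorvastatin, 205 and 139 for HCB, and 199.6 and 164 for the combination. It rose by 0.98 ± 0.29 (SE, adjusted p = 0.0297 by edgeR) and 1.21 ± 0.29 (SE, adjusted p = 0.0117 by edgeR) on the log2 scale, lost against Control without Control 1 or HCB 1 (edgeR adjusted p = 0.215 and 0.155) and in the combination without Atorvastatin 1 or combination 1 (edgeR adjusted p = 0.0834 and 0.0886). Acox2, the oxidase of branched chains and bile acid precursors, stood at 286 and 402 CPM for Control, 261 and 323 for Atorvastatin, 731 and 487 for HCB, and 619 and 405 for the combination. No libraries overlapped between the groups with and without HCB. It missed the threshold at 0.82 ± 0.34 (SE, adjusted p = 0.0977 by edgeR) and 0.81 ± 0.34 (SE, adjusted p = 0.0994 by edgeR), and passed in the average at 0.82 ± 0.24 (SE, adjusted p = 0.0175 by edgeR), lost without Control 1, HCB 1 or combination 1 (edgeR adjusted p = 0.0535 to 0.0819).

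The remaining peroxisomal members include classical fibrate-responsive genes. Ehhadh, the bifunctional enzyme of straight chains, stood at 344 and 343 CPM for Control, 313 and 245 for Atorvastatin, 305 and 363 for HCB, and 368 and 454 for the combination. HCB overlapped Control, and both combination libraries lay above both Atorvastatin libraries. It passed in neither comparison, at −0.04 ± 0.28 (SE, adjusted p = 0.925 by edgeR) and 0.56 ± 0.28 (SE, adjusted p = 0.154 by edgeR). Acaa1a and Acaa1b, a pair of close thiolase copies whose reads may be shared, stood at 161 to 191 CPM and 20.0 to 69.2 CPM over the 8 libraries, and neither passed. Acaa1a was at 0.13 ± 0.24 (SE, adjusted p = 0.707 by edgeR) and 0.05 ± 0.24 (SE, adjusted p = 0.898 by edgeR), and Acaa1b at −0.70 ± 0.38 (SE, adjusted p = 0.189 by edgeR) and −0.56 ± 0.37 (SE, adjusted p = 0.285 by edgeR), past the threshold in the combination without Atorvastatin 2 (edgeR adjusted p = 0.0248) and at 0.27 without Atorvastatin 1.

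The 4 Cyp4a members, microsomal enzymes that hydroxylate the far end of fatty acids, lie in a cluster on chromosome 5 and were called in different directions. Their sum was 661 to 759.7 CPM without HCB, 363 and 473 CPM for HCB, and 623 and 675 CPM for the combination. Cyp4a2 (ENSRNOG00000064139, chromosome 5, 128923615 to 129026477, − strand) had 0 and 6 reads for Control, 2 and 8 for Atorvastatin, 404 and 324 for HCB, and 1362 and 1493 for the combination. In CPM that was 0 and 0.142 CPM for Control, 0.0479 and 0.166 for Atorvastatin, 12.8 and 8.65 for HCB, and 34.1 and 33.6 for the combination. It was next to absent without HCB, present with it, and higher in both combination libraries than in both HCB libraries. The log2 fold change was 7.14 ± 0.65 (SE, adjusted p = 3.86e-05 by edgeR) against Control and 8.22 ± 0.63 (SE, adjusted p = 1.24e-05 by edgeR) in the combination against Atorvastatin, past the threshold in each of the 18 other settings. As Cyp4a2 passed the filter only through libraries with HCB, it had to differ, so these p-values and settings are no independent support. Against so few reads the size is loose: without Control 2 the value against Control was 11.77.

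Cyp4a3 (ENSRNOG00000066878, chromosome 5, 129097926 to 129115463, − strand) was highest without HCB, at 459 and 537 CPM for Control, 493 and 495 for Atorvastatin, 218 and 281 for HCB, and 329 and 429 for the combination. It fell against Control, at −0.998 ± 0.29 (SE, adjusted p = 0.0263 by edgeR), and did not pass in the combination against Atorvastatin, at −0.38 ± 0.29 (SE, adjusted p = 0.335 by edgeR). The fall was lost without Control 1, Control 2, HCB 1, combination 1 or combination 2 (edgeR adjusted p = 0.0536 to 0.143). Cyp4a1 stood at 190.1 and 204 CPM for Control, 164 and 218 for Atorvastatin, 118 and 172 for HCB, and 192 and 179 for the combination and passed in neither, at −0.44 ± 0.27 (SE, adjusted p = 0.255 by edgeR) and −0.04 ± 0.27 (SE, adjusted p = 0.919 by edgeR). Cyp4a8 stood at 12.0 and 18.7 CPM for Control, 10.9 and 26.1 for Atorvastatin, 14.2 and 12.0 for HCB, and 67.9 and 33.5 for the combination. Both combination libraries lay above the other 6, by unequal amounts. It rose in the combination against Atorvastatin, at 1.45 ± 0.43 (SE, adjusted p = 0.0307 by edgeR), with no call against Control, at −0.23 ± 0.43 (SE, adjusted p = 0.728 by edgeR). Its size moved from 0.89 without combination 1 and 0.96 without Atorvastatin 1 to 2.23 without Atorvastatin 2. The call was lost without Atorvastatin 1, HCB 1, HCB 2 or combination 1 (edgeR adjusted p = 0.0582 to 0.252), and also when only the Atorvastatin and combination libraries were fitted.

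Cyp4a2 and Cyp4a3 are shown side by side because they went in opposite directions against Control and the sequences before their starts are nearly the same. The 250 bases before the start lie at chr5:134170909-134171158 and chr5:134352237-134352486 on the − strand (RefSeq, build GRCr8), and capitals mark bases that differ or have no partner in an alignment of both.
Cyp4a2: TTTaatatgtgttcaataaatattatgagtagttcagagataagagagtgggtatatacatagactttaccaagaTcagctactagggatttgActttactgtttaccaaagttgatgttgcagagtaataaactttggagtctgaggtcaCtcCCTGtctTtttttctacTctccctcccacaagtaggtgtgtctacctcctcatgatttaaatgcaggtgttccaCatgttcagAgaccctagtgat
Cyp4a3: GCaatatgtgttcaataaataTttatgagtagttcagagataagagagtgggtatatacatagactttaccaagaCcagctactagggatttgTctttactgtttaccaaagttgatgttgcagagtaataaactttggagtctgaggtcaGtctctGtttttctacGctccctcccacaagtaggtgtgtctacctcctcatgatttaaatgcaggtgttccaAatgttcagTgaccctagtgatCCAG
Of 245 paired positions 236 were identical, 96.3%, with 9 that differed and 5 in each sequence without a partner. The transcripts are close copies too, so reads of one may have been counted to the other or dropped as multimapping, and the levels of both are uncertain to that extent. As counted, Cyp4a2 held no more than 0.0192% of the summed CPM per kb of the 4 Cyp4a members in any unexposed library and 1.55% to 4.70% with HCB.

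Of the last 3 members, Vnn1 fell against Control. Vnn1, the pantetheinase vanin 1 and a fibrate-responsive gene (ENSRNOG00000016219, chromosome 1, 21537094 to 21547395, − strand), stood at 71.5 and 83.1 CPM for Control, 44.4 and 48.3 for Atorvastatin, 30.6 and 19.3 for HCB, and 29.5 and 31.7 for the combination. Control was highest, Atorvastatin lay between, and the HCB-labelled libraries were lowest, with no overlap in either comparison. The log2 fold change was −1.63 ± 0.26 (SE, adjusted p = 0.00116 by edgeR) against Control, past the threshold in each of the 18 other settings, and −0.60 ± 0.25 (SE, adjusted p = 0.0984 by edgeR) in the combination against Atorvastatin, where it passed without HCB 1 or HCB 2 (edgeR adjusted p = 0.0477 and 0.0409). Pdk4, the kinase that shuts off glucose oxidation in fasting, stood at 55.3 and 127 CPM for Control, 106 and 87.1 for Atorvastatin, 33.5 and 71.1 for HCB, and 98.98 and 148 for the combination, with overlap in both comparisons, and passed in neither, at −0.80 ± 0.43 (SE, adjusted p = 0.188 by edgeR) and 0.36 ± 0.42 (SE, adjusted p = 0.55 by edgeR). Bdh1, which makes hydroxybutyrate from acetoacetate, ranged from 271 to 425 CPM and passed in neither, at −0.38 ± 0.28 (SE, adjusted p = 0.338 by edgeR) and −0.20 ± 0.28 (SE, adjusted p = 0.626 by edgeR).

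With both HCB comparisons averaged, which uses 4 libraries on each side, 23 members passed, 15 higher and 8 lower, or 63.9% where 46.6% of all genes did. The higher members were 41.7% against 21.3% of all genes, and the lower ones 22.2% against 25.3%. Scaled to total assigned reads the split was 9 higher and 15 lower, where 8497 of the 16591 genes were called in either direction. The 6 that passed here and in neither single comparison were Acot2, Slc25a20, Acadl, Acads, Hadhb and Acox2. Under total-read scaling the calls of Slc25a20, Acadl, Acads and Acox2 were lost, and without both Control 1 and Atorvastatin 1 those of Slc25a20, Acadl and Acox2. Hadhb lost its call with a replicate block and with the size factors of DESeq2. The difference between the 2 HCB comparisons is the interaction of both treatments, and it was called for none of the 36 members and none of the 16591 genes. At an unadjusted p under 0.05 it held 3 members and 391 genes, and DESeq2 called 0 members and 5 genes. Among the members Vnn1 had the smallest p, at 1.03 ± 0.36 (SE, adjusted p = 1 by edgeR), then Cyp4a8 at 1.68 ± 0.61 (SE, adjusted p = 1 by edgeR) and Cpt1a at −1.07 ± 0.40 (SE, adjusted p = 1 by edgeR). A call in one comparison and not in the other, as for Cpt1a, Cyp4a3, Cyp4a8, Vnn1, Acsl1 and Acad11, was therefore not shown to be a difference between them.

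Atorvastatin without HCB gave no edgeR call. Against Control 0 members and 0 genes passed (0% of all genes), 1 member and 181 genes were at an unadjusted p under 0.05, and DESeq2 called 0 members and 3 genes. The smallest p belonged to Vnn1, at 71.5 and 83.1 CPM in Control and 44.4 and 48.3 CPM in Atorvastatin, a log2 fold change of −0.74 ± 0.25 (SE, adjusted p = 1 by edgeR). Acad11 followed at −0.41 ± 0.24 (SE, adjusted p = 1 by edgeR) and Hadhb at −0.48 ± 0.32 (SE, adjusted p = 1 by edgeR), which was −0.023 without Control 2. Of the 36 members 24 had a negative and 12 a positive fold change, with a median of −0.12 beside 0.01 over all genes. All 11 mitochondrial members had a negative value, from −0.48 to −0.04, and none passed, where 7977 of the 16591 genes were negative. Their sum was 2489 and 3534 CPM for Control and 2338 and 2614 CPM for Atorvastatin, so the groups overlapped and Control 2 stood highest.

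Atorvastatin on top of HCB, the combination against HCB, likewise gave no edgeR call for any of 36 members or 16591 genes (0%). At an unadjusted p under 0.05 there were 4 members and 857 genes, and DESeq2 called 3 members and 47 genes. Those 3 were Cyp4a8, Cpt1a and Cyp4a2. Cyp4a8 was at 14.2 and 12.0 CPM in HCB and 67.9 and 33.5 CPM in the combination, a log2 fold change of 1.95 ± 0.44 (SE, adjusted p = 0.699 by edgeR), with a DESeq2 adjusted p of 0.0091. Cpt1a was at 415 and 274 against 157 and 148 CPM, −1.17 ± 0.28 (SE, adjusted p = 0.811 by edgeR), with 0.0099 by DESeq2. Cyp4a2 was at 12.8 and 8.65 against 34.1 and 33.6 CPM, 1.66 ± 0.43 (SE, adjusted p = 0.848 by edgeR), with 0.00616 by DESeq2. In each of the 3 the groups did not overlap, as in 17 of all 36 members. How many of all genes did not overlap was not counted, so the lack of overlap is no result about the members. The 3 were picked from these same libraries, so this is no further support. Without a filter on low counts edgeR called 3 members, Cyp4a8 and Cyp4a2 among them. The average effect of atorvastatin over both backgrounds called 0 members and 0 genes by edgeR (0%), 0 members and 12 genes by DESeq2, with 2 members and 601 genes at an unadjusted p under 0.05. Its smallest p-values were those of Cyp4a8 at 1.11 ± 0.31 (SE, adjusted p = 0.99 by edgeR), Cpt1a at −0.64 ± 0.20 (SE, adjusted p = 0.99 by edgeR) and Pdk4 at 0.66 ± 0.30 (SE, adjusted p = 0.99 by edgeR). These comparisons share libraries with the HCB comparisons, so a low Cpt1a or a high Cyp4a8 in the combination enters both.

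The wider pathway was read from 6 further lists, also chosen with earlier results of these data known. Of their 132 genes 124 were found and 122 were tested. Against Control 39 rose and 16 fell, and in the combination against Atorvastatin 37 rose and 13 fell, with medians of 0.43 and 0.51. Of all genes tested 13% rose and 13.9% fell against Control, and 12.6% rose and 15% fell in the combination. In both, 33 of the 122 rose and 12 fell, where 9.64% of all genes rose and 10.2% fell. Scaled to total assigned reads, the split was 23 higher and 20 lower against Control and 18 higher and 24 lower against Atorvastatin, with medians of 0.01 and −0.11. Of the 16591 genes 4311 and 5527 were then called, in either direction. Rxra and Acaca then did not pass in the combination. Without both Control 1 and Atorvastatin 1 fewer of these genes passed, and fewer of all genes too. Acot13 and Acaca were lost against Control, and Ech1, Acot13, Acaca and Rxra in the combination.

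Peroxisomal oxidation and assembly had 13 of 32 genes higher and 2 lower in both comparisons, beside 9.64% and 10.2% of all genes. The list summed to 3684 to 4937 CPM in the unexposed libraries and 9669 to 10309.5 CPM in the HCB-labelled ones. Abcd2, a peroxisomal carrier of very long-chain fatty acids, stood at 167 and 197 CPM in Control against 1.71 and 2.51 CPM in HCB, −6.42 ± 0.33 (SE, adjusted p = 1.1e-06 by edgeR), and fell likewise in the combination against Atorvastatin, −6.15 ± 0.32 (SE, adjusted p = 1.3e-06 by edgeR). Pecr, the peroxisomal enoyl-CoA reductase, rose by 2.19 ± 0.32 (SE, adjusted p = 0.000674 by edgeR) and 2.17 ± 0.31 (SE, adjusted p = 0.000722 by edgeR).

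In ketone body formation 1 of 7 genes rose and 2 fell in both (all genes, 9.64% and 10.2%). Acat1, the mitochondrial acetoacetyl-CoA thiolase, fell, at −1.52 ± 0.28 (SE, adjusted p = 0.00304 by edgeR) and −1.36 ± 0.28 (SE, adjusted p = 0.00537 by edgeR), and Slc16a6, a ketone body exporter, at −1.63 ± 0.37 (SE, adjusted p = 0.00885 by edgeR) and −1.63 ± 0.37 (SE, adjusted p = 0.00882 by edgeR). Bdh2, a cytosolic dehydrogenase, rose by 3.21 ± 0.65 (SE, adjusted p = 0.00492 by edgeR) and 3.35 ± 0.67 (SE, adjusted p = 0.00454 by edgeR). Acat1 lost its call in the combination without combination 1 (edgeR adjusted p = 0.0788). For Slc16a6 the call was lost against Control without Control 2 or HCB 1 (edgeR adjusted p = 0.0963 and 0.0861), with −0.92 on the log2 scale without Control 2, and in the combination without combination 1 or combination 2 (edgeR adjusted p = 0.0605 and 0.0689).

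Electron transfer and auxiliary mitochondrial oxidation had 2 of 14 higher and 2 lower in both, each near the 9.64% and 10.2% of all genes. Cpt1b, the muscle form of the outer carnitine enzyme, fell from 6.22 to 0.364 CPM on average against Control, −4.06 ± 0.53 (SE, adjusted p = 0.000377 by edgeR), and in the combination, −3.81 ± 0.51 (SE, adjusted p = 0.000485 by edgeR). Ech1, a dienoyl-CoA isomerase, fell, at −1.47 ± 0.27 (SE, adjusted p = 0.00311 by edgeR) and −0.86 ± 0.27 (SE, adjusted p = 0.0375 by edgeR), and Acot13, a thioesterase, rose by 1.71 ± 0.35 (SE, adjusted p = 0.00475 by edgeR) and 1.60 ± 0.35 (SE, adjusted p = 0.00679 by edgeR). The fall of Ech1 in the combination was lost without Atorvastatin 1, Atorvastatin 2, combination 1 or combination 2 (edgeR adjusted p = 0.0536 to 0.283). The rise of Acot13 there was lost without combination 1 (edgeR adjusted p = 0.0534).

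Uptake, binding and activation had 2 of 15 tested genes higher and 3 lower in both (all genes, 9.64% and 10.2%). The binding proteins Fabp5 and Fabp7, known from skin and brain, went the opposite way to Fabp1. Fabp5 was at 121 and 279.5 CPM in Control and 11.4 and 19.8 CPM in HCB, and Fabp7 at 224 and 246 and 19.8 and 10.8 CPM. Fabp5 fell, at −3.68 ± 0.50 (SE, adjusted p = 0.000503 by edgeR) and −4.30 ± 0.51 (SE, adjusted p = 0.000237 by edgeR), and Fabp7 at −3.94 ± 0.38 (SE, adjusted p = 5.25e-05 by edgeR) and −3.49 ± 0.37 (SE, adjusted p = 9.94e-05 by edgeR). Slc27a5, a liver acyl-CoA and bile acid-CoA synthetase, rose by 2.28 ± 0.34 (SE, adjusted p = 0.000889 by edgeR) and 2.40 ± 0.35 (SE, adjusted p = 0.000704 by edgeR).

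Receptors, partners and regulators had 5 of 24 higher and 0 lower in both (all genes, 9.64% and 10.2%). Rxra, the partner of PPAR-alpha, stood at 143 and 123 CPM for Control, 152 and 135 for Atorvastatin, 151 and 318 for HCB, and 336 and 299.8 for the combination. It did not pass against Control, at 0.82 ± 0.34 (SE, adjusted p = 0.0939 by edgeR), and rose in the combination, at 1.15 ± 0.34 (SE, adjusted p = 0.0282 by edgeR), a call lost without Atorvastatin 1, Atorvastatin 2, combination 1 or combination 2 (edgeR adjusted p = 0.073 to 0.129). Against Control it passed without HCB 1 (edgeR adjusted p = 0.0144) and was at 0.18 without HCB 2. Acacb, whose product malonyl-CoA inhibits the outer carnitine enzyme, rose from 11.1 to 95.4 CPM on average against Control, 3.10 ± 0.31 (SE, adjusted p = 7.39e-05 by edgeR), and in the combination, 3.34 ± 0.32 (SE, adjusted p = 5.16e-05 by edgeR). Acaca, its cytosolic counterpart, rose by 1.60 ± 0.36 (SE, adjusted p = 0.00861 by edgeR) and 1.46 ± 0.36 (SE, adjusted p = 0.013 by edgeR), and Prkaa2, a catalytic subunit of the kinase AMPK, by 1.88 ± 0.25 (SE, adjusted p = 0.000406 by edgeR) and 2.05 ± 0.25 (SE, adjusted p = 0.000248 by edgeR). Acaca lost its call against Control without Control 1 or HCB 2 (edgeR adjusted p = 0.0768 and 0.0553) and in the combination without Atorvastatin 1 or combination 1 (edgeR adjusted p = 0.0838 and 0.0955).

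The list of other PPAR-alpha targets had 10 of 30 tested genes higher and 3 lower in both, beside 9.64% and 10.2% of all genes. Retsat, a retinol saturase, rose by 2.58 ± 0.29 (SE, adjusted p = 0.000142 by edgeR) and 2.83 ± 0.29 (SE, adjusted p = 8.25e-05 by edgeR). Aqp7, a glycerol channel known from fat, fell, at −4.50 ± 0.57 (SE, adjusted p = 0.000306 by edgeR) and −4.37 ± 0.55 (SE, adjusted p = 0.000309 by edgeR), and Ucp2, a mitochondrial carrier, at −1.91 ± 0.25 (SE, adjusted p = 0.000383 by edgeR) and −1.60 ± 0.25 (SE, adjusted p = 0.00108 by edgeR). The mean level of Aqp7 was 7.67 CPM for Control and 0.337 CPM for HCB. Adipocyte markers, 4 of 4 found, summed to 30.9 CPM in Atorvastatin 2 and to 0 to 2.72 CPM in the other libraries, and their part in these values was not tested.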

How the data were processed

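Per the file headers, the deposited values are raw read counts per gene, made by the authors with featureCounts 2.0.6 over Ensembl 111 exons of mRatBN7.2. The header's command holds no option to count read pairs, and the counts over all classes sum to 508 M reads against 249 M stated in the labels, so mates appear to be counted singly. It gives no strand option either. The submitters' processing notes name fastp 0.23.4, STAR 2.7.10b, R 4.3.2 and DESeq2 1.42.1.

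The 36 members and the lists were chosen with earlier results of these data known. Samples were grouped by the labels, 2 a group. The counts were fitted for all 4 groups in 1 model with edgeR 4.0.16 in R 4.3.3 (TMM, filterByExpr, robust quasi-likelihood), with Benjamini-Hochberg adjustment over the 16591 of 30562 genes that passed, at 0.05. The SE is the log2 fold change over the square root of F. Rows with no symbol, 4367 in all, stayed in the fit under their identifiers. Every member could be named in the HCB comparisons. Elsewhere members past the threshold, or else the 3 of smallest p, were named, and from each pathway list up to 3 past it in both HCB comparisons, with Rxra always; some genes the rule names are not reported here. Alternatives were DESeq2 1.42.0, other filters and scalings, a replicate block, halving the counts, and leaving out libraries. The fit was tested on simulated data. Promoter windows came from RefSeq (GRCr8), and figures were drawn with matplotlib 3.10.9.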

Additional observations from a re-analysis of the deposited data

How the results depend on the processing

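Of the values under settings that left no single library out, 1153 kept their direction and side of the threshold, 42 gained and 40 lost a call, and 13 changed sign. Of those with 1 library left out the numbers were 898, 17, 83 and 10. Against Control 5 of the 14 called members passed in all 18 settings, and 6 of 16 in the combination against Atorvastatin. Those that passed throughout include Cyp4a2 in both comparisons and Acot1 in the combination, which had to differ by the filter. DESeq2 called 19 members in each HCB comparison.

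Scaling to total assigned reads, chosen after seeing the data, turned the sign of these log2 fold changes, none of them called under TMM: against Control, −0.016 for Creb3l3, −0.15 for Acadvl and −0.31 for Acaa1a; in the combination against Atorvastatin, −0.28 for Creb3l3, −0.084 for Slc25a20, −0.31 for Acadvl, −0.17 for Acadl, −0.32 for Acaa2, −0.086 for Ehhadh, −0.59 for Acaa1a and −0.27 for Pdk4. In the average of both, the call for Slc25a20 became −0.030. Scaling by total reads moves every gene of a library by one amount, so these turned with the median of all genes.

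Without Control 1 and Atorvastatin 1 together, the fits with fewer samples called 2108 genes, 10 members and 35 pathway genes against Control, 2147, 10 and 33 in the combination, and 4643 genes and 19 members in the average. Acaa1b became 0.26 in the combination. With each library left out in turn, 2164 to 4622 genes, 8 to 16 members and 32 to 59 pathway genes were called against Control, and 1902 to 4819, 7 to 16 and 25 to 58 in the combination. Genes called for atorvastatin were 0 to 33 against Control, 0 to 6 against HCB, 0 to 9 in the average and 0 to 5 in the interaction. Uncalled values that crossed 0 ranged over −1.42 to 0.14 for Acot3, −0.51 to 0.071 for Cpt1a, −0.17 to 0.10 for Ehhadh and −0.51 to 0.16 for Cyp4a8 against Control, and over −0.26 to 0.047 for Hadha, −0.043 to 0.16 for Acaa1a, −1.07 to 0.27 for Acaa1b, −0.23 to 0.19 for Cyp4a1, −0.40 to 0.057 for Bdh1 in the combination.

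For atorvastatin, DESeq2 called 3 genes against Control, 47 against HCB, 12 in the average and 5 in the interaction, and edgeR without a filter on low counts 76, 179, 140 and 70. Members among them were 3 by DESeq2 and 3 without the filter against HCB, and 1 without the filter in the average and 1 in the interaction. The cause was not tested. Deviations from group means of same-numbered samples correlated at 0.27 between Control and Atorvastatin and at −0.05 to 0.05 between other groups. Control 1 correlated with Atorvastatin 1 at 0.978 and Control 2 with Atorvastatin 2 at 0.973. These values lay above 0.970 within Control and 0.960 within Atorvastatin, so the unexposed libraries grouped in part by replicate number. The cause of that grouping was not tested. A fit with the replicate block called 14, 16 and 22 members in the 2 HCB comparisons and their average, and 53 and 48 pathway genes.

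With 2 animals a group and 4 residual degrees of freedom, a member that missed the threshold was not shown to be unaltered. At 6 reads or fewer over a group, as for Cyp4a2 in Control, the fold depends on the prior count.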

Other observations

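Ratios between members described above, which restate their levels, also differed between libraries. Fabp1 over Acsl1, both in CPM per kb, was 0.330 and 0.737 for Control, 0.497 and 1.16 for Atorvastatin, 0.9996 and 1.14 for HCB, and 1.07 and 1.0002 for the combination. The 4 HCB-labelled libraries lay close to each other, and the unexposed ones spread from the lowest to the highest value. Acot1 over Acot2, on the same scale, was 0.459 and 0.757 for Control, 0.865 and 0.242 for Atorvastatin, 0.0184 and 0.0119 for HCB, and 0.00195 and 0.00898 for the combination. Libraries with and without HCB did not overlap, but Acot1 passed the filter only through the unexposed ones. The lack of overlap is therefore no independent support. Markers of stellate and mesenchymal cells summed to 2823 CPM in Atorvastatin 2 and 409 to 673 CPM in the other libraries.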
